A study of Mus musculus with 21 samples.

Results

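The 55 genes described here encode the machinery that copies DNA and divides the cell, together with the cyclins, cyclin-dependent kinases (CDKs) and inhibitors that time it. They were taken by name from a list of cell cycle and DNA replication genes, and all 55 were found among the 37734 genes of the deposited tables. They comprise 13 genes of origin licensing and the replicative helicase, 8 of DNA synthesis at the fork, 4 of nucleotide supply, 11 of mitosis, 12 cyclins and CDKs, 4 inhibitors and 3 genes grouped as E2F1, its pocket protein and a chromatin factor. The values are RNAseq read counts of conventional dendritic cells (cDCs), the myeloid cells that present antigen to T cells, from C57BL/6 mice aged 6 to 8 weeks. CD11c+ cells were enriched from digested thymus or spleen on magnetic beads and FACS-sorted into cDC1 (CD24+ CD11b-, negative for F4/80, Ly6g, Ly6c, DX5 and B220) and cDC2 (CD24- CD11b+, negative for B220). Cells without CCR7 and Esam on the surface were taken as immature and those with both as mature. The 6 groups were immature splenic cDC1 (5 libraries), immature splenic cDC2 (3), immature thymic cDC1 (4), immature thymic cDC2 (3), mature thymic cDC1 (3) and mature thymic cDC2 (3). No treatment of the mice is given, mature splenic cells were not analysed here, and the tissues of several mice were pooled for each library. Pools shared by libraries, and repeated sequencing of a library, mean that the p values measure the spread between these samples, which may be partly technical.

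A cell prepares to copy its genome by loading the MCM helicase onto origins, a step that needs ORC, CDC6 and CDT1, and then fires these origins with CDC45 and the GINS complex. D-type cyclins with CDK4 or CDK6 release E2F factors from the RB1 pocket protein, which allows the S phase genes to be transcribed, whereas the G2 and M phase genes peak later. CDK inhibitors such as p21 (Cdkn1a), p27 (Cdkn1b), p18 (Cdkn2c) and p19 (Cdkn2d) hold these kinases back. cDCs arise from dividing precursors in the bone marrow, some immature cDCs still divide in tissues, and maturation, marked by CCR7, brings changes in migration and antigen presentation. In bulk samples, fewer cells in cycle and less RNA per cycling cell cannot be told apart.

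Depth was 14266867 to 40119669 recovered reads per library, and intervals or floors drawn from these reads would cover counting error only. Splenic cDC1 replicates 4 and 5 came from the same pool, index and lane, differed less than any other pair of their group and were counted as 1 sample, leaving 20 samples. Splenic cDC1 replicate 1 carried the same pool number but was read on lane 5. Immature thymic cDC1 replicates 3 and 4 also shared a pool number. The 4 samples of each of these groups are thus not 4 separate pools of tissue, although the main test treated them as separate. Mature thymic cDC1 replicate 1 carried the pool number of immature thymic cDC1 replicates 3 and 4, and the main test did not pair them. The mature libraries were all read on lane 8, whereas each immature group had libraries on lanes 5 and 8, so results are also given within lane 8. Splenic cDC1 replicate 3, thymic immature cDC1 replicate 3, splenic cDC2 replicate 2 and mature cDC2 replicate 3 stood apart from their groups, and the counts are given without them as well. The sorting markers followed the labels, Ccr7 being at 91722 or more in every mature sample and at 5433 or less in every immature sample. The cDC1 markers Xcr1 (8385 to 15629 in splenic and 16194 to 20744 in immature thymic cDC1) and Clec9a were much lower in mature cDC1 (Xcr1 253 to 557), and the cDC2 marker Sirpa was 18967 to 28215 and 13773 to 16706 in immature cDC2 and 5415 to 8425 in mature cDC2. Of 7 genes known from mature DCs, 7 were called higher with maturation in cDC1 and 6 in cDC2, where 21.3% and 18.6% of all genes tested were. Of 8 genes each for cDC1 and cDC2, 7 and 8 were called in the labelled direction between the splenic subsets and between the immature thymic subsets, and 5 and 7 between the mature subsets. In the same order, 6.7%, 5.42% and 4.36% of all genes tested were called higher in cDC1. The shares called higher in cDC2 were 9.93%, 11.0% and 14.6%. Esam was at 896 or more in every mature sample and at 86.9 or less in every immature one.

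Marker genes of other cells that the gates could hold were summed per sample. For the counts of calls below, 21.3% of all genes tested were called higher with maturation in cDC1 and 24.5% lower. In cDC2 these shares were 18.6% and 17.0%. The sum of 12 T-lineage genes was 1672 to 2750.3 in mature cDC1 and 1016 to 1767 in mature cDC2, against 332 to 349.6 and 358 to 492 in immature thymic cDC1 and cDC2 and 195 to 359 and 241 to 415 in their splenic counterparts. Of the 10 genes of this list that were tested, 9 were called higher in the mature cells of each subset, and Cd5 was called lower in mature cDC1. Ptcra, a gene of immature thymocytes, was at 3.26 or less everywhere. Other genes of the list were among those called higher in both subsets. Rag1 rose from means of 47.7 to 251 in cDC1 and 33.3 to 187 in cDC2. Dntt rose from 15.7 to 151 and from 29.1 to 105, and Themis from 18.4 to 204 and from 21.4 to 109. The sum of 8 macrophage genes was 3375 to 6198 in immature thymic and 6410.5 to 9325 in mature cDC1, and 10754 to 15446 and 6644 to 20411 in the same cDC2 groups. Its members went both ways with maturation, 3 being called higher and 4 lower in cDC1 and 2 and 2 in cDC2. Vcam1 rose from a mean of 695 to 6740 in cDC1 and supplied most of the mature sum, while Cd68 fell from 3443 to 229. In cDC2, C1qa, C1qb and C1qc had means of 2289, 2539 and 1541 in immature thymic and 3058, 3354 and 2562 in mature cells. Their log2 fold changes were -0.05, -0.14 and 0.30, the samples overlapped and none was called there. The same genes had means of 88.8, 68.6 and 99.1 and of 53.3, 61.2 and 62.1 in cDC1. Adgre1 was at 1874 and 834 in these cDC2 groups and at 4534 in splenic cDC2, against 97.9, 51.1 and 118 in cDC1. Vcam1 was not called between the subsets. The 8 plasmacytoid DC genes summed to 5287 to 6095 and 10654 to 12232 in immature thymic cDC1 and cDC2 against 5128 to 8203 and 6140.0 to 8216 in the mature groups. Of the 7 of them tested, 3 were called lower in mature cDC1, and in mature cDC2 4 were lower and 2 higher, with Siglech at means of 414 and 889 in immature and 8.00 and 38.2 in mature cells. The 4 progenitor genes summed to 21805 to 26004 and 15781 to 18463 against 30239.6 to 32259.5 and 19548 to 23541, sums made mostly of Flt3, which cDCs express. Kit and Cd34, also in that list, fell in both subsets like most of the 55 genes, Kit from means of 6263 to 836 in cDC1 and 4046 to 899 in cDC2 and Cd34 from 56.9 to 0.88 and from 126 to 11.3, whereas Sox4 rose in both. The 6 epithelial genes summed to 597 to 711 and 3507 to 3877 against 1805 to 2579 and 3817 to 4878, but Epcam fell from means of 581 to 158 in cDC1 and 3516 to 385 in cDC2 while Aire rose from 10.3 to 1793 and from 43.4 to 3408. Krt5 had means of 22.1 in immature and 98.6 in mature cDC1, and 32.5 and 175 in cDC2. Krt8 was likewise at 41.4 and 94.4, and at 42.1 and 180. Foxn1 was at 1.28 and 5.80, and at 5.35 and 14.2. Psmb11 was at 10.4 and 7.01 in cDC1, and at 13.0 and 108 in cDC2. The 5 plasma cell genes summed to 3261 to 4068 and 4465 to 5219 against 1104 to 1317 and 1207 to 1361, nearly all of it Xbp1, and the highest mean of Jchain, Mzb1, Sdc1 or Tnfrsf17 in these 4 groups was 17.0. No sample exceeded 984 for 7 B cell genes, 623 for 7 monocyte or neutrophil genes, 186 for 5 NK genes or 96 for 8 erythroid genes. The part of these cells in the results below was not tested.

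All 55 genes were read in every immature sample of both tissues, with at least 42 reads. Compared per kilobase of exon, Pcna, the sliding clamp of the DNA polymerases, averaged 2397 normalized reads per kilobase in immature thymic cDC1 and 2334 in splenic cDC1, above Mcm5, a subunit of the MCM helicase, at 992 and 926. On the same scale the mitotic genes Top2a, which encodes the topoisomerase that untangles chromosomes, and Mki67, which coats them, averaged 940.3 and 1157 in immature thymic cDC1. In mature cDC1 the per kilobase levels were 605 for Pcna, 71.8 for Mcm5, 98.8 for Top2a and 415 for Mki67. The heat map of all 55 genes shows the mature samples of both subsets apart from every immature sample over most rows.

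**Figure D1:**
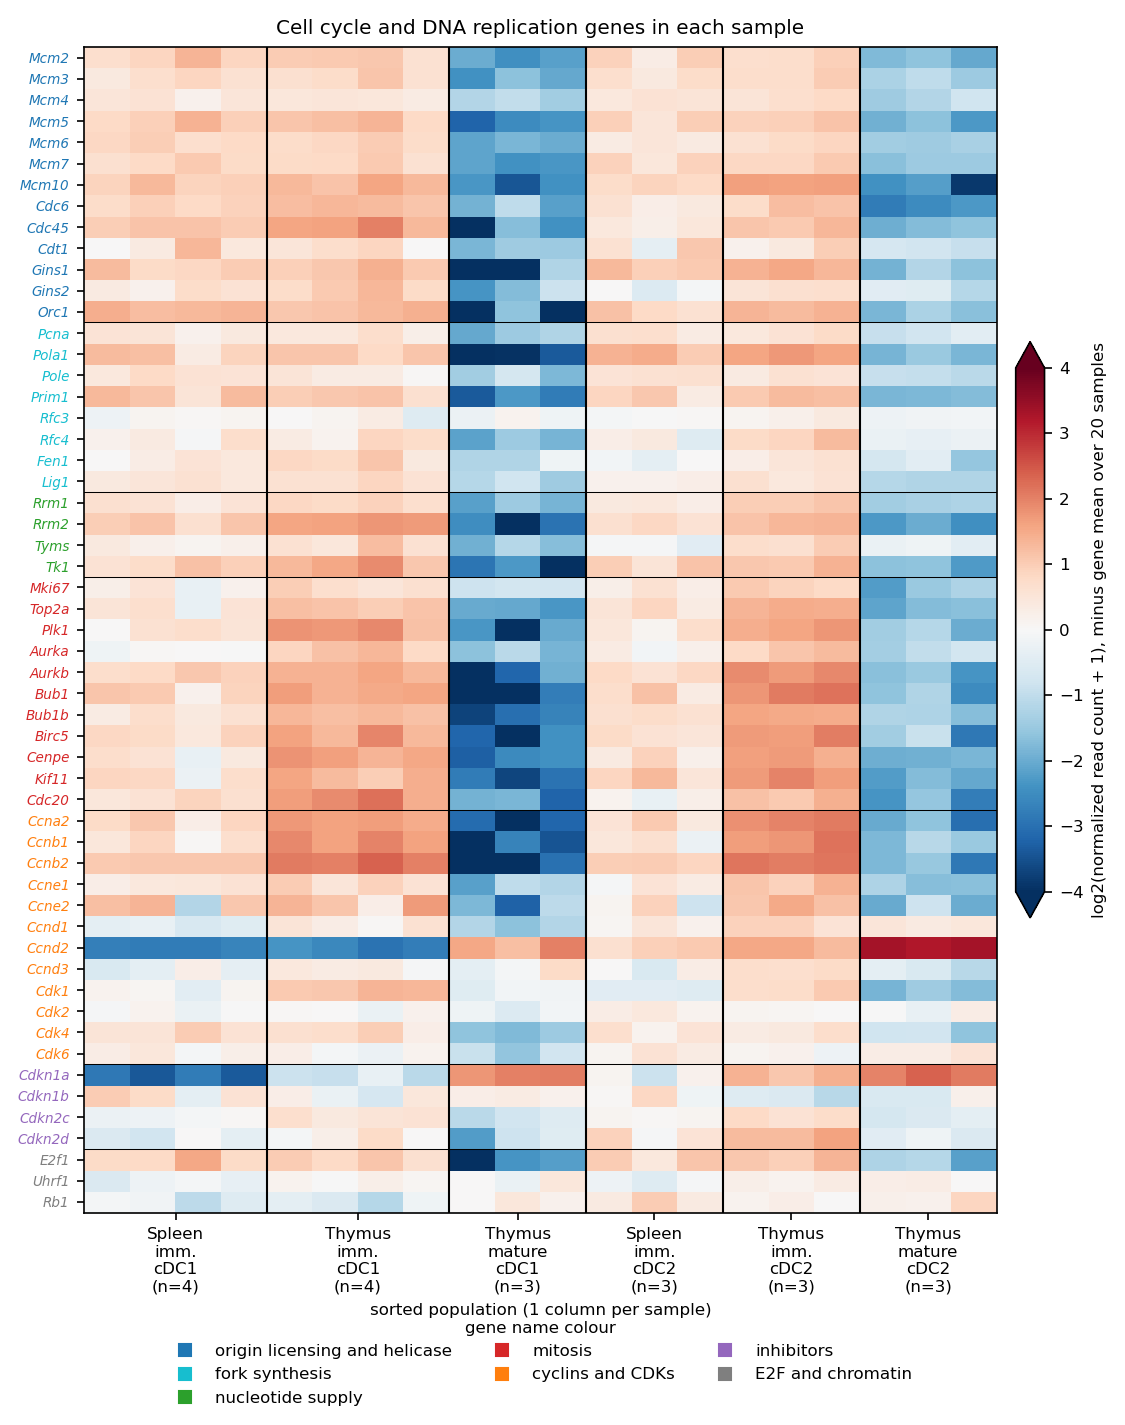
Heat map of the 55 cell cycle and DNA replication genes (rows, ordered by role) in the 20 samples (columns, by group). Colour gives log2 of the normalized read count plus 1, minus the mean of that gene over the samples, on a scale cut at -4 and 4. The 6 mature samples are low for most rows of replication and mitosis and high for Cdkn1a and Ccnd2.

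The upstream sequences of 6 of these genes are shown because the genes stand for the patterns described below, with replication (Mcm5, Mcm6), mitosis (Top2a, Ccnb2), a kinase gene that spans both phases (Cdk1) and the inhibitor that moved the other way (Cdkn1a). The choice was made after the values and the matches were seen. Each stretch is the 200 bases before the RefSeq start in GRCm38.p6, read 5′ to 3′ on the strand of the gene. Capitals mark matches, on either strand, to 3 kinds of letters, namely E2F-type octamers (TTTCCCGC, TTTGGCGC, TTTGCCGC or TTTCGCGC), the CHR hexamer TTTGAA known from genes of G2 and M phase, and the CCAAT box. Matches that overlap each other, as E2F-type octamers on opposite strands do, give 1 longer run of capitals. The stretches lie at chr8:75109309-75109508 on the plus strand, chr1:128359706-128359905 on the minus strand, chr11:99024190-99024389 on the minus strand, chr9:70421555-70421754 on the minus strand, chr10:69352913-69353112 on the minus strand and chr17:29090779-29090978 on the plus strand, in that order.
Mcm5: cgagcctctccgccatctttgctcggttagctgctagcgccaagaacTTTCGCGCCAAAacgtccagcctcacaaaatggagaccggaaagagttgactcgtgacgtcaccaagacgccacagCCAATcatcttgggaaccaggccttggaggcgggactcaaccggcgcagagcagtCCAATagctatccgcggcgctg
Mcm6: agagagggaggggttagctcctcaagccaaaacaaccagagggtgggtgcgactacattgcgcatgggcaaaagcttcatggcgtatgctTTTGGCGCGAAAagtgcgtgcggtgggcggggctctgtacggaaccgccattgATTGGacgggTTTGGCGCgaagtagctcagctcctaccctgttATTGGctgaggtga
Top2a: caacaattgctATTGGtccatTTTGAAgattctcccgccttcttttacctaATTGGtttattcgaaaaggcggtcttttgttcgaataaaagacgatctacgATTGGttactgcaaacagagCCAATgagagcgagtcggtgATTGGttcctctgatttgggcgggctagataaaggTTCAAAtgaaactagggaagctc
Ccnb2: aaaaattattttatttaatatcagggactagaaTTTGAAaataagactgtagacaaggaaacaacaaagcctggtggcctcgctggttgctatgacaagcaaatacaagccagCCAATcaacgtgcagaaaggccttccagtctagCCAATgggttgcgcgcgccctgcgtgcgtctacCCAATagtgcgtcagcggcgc
Cdk1: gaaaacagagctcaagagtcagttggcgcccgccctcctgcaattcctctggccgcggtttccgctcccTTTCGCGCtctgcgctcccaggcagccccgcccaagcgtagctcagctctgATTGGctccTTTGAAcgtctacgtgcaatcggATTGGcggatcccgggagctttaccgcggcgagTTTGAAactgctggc
Cdkn1a: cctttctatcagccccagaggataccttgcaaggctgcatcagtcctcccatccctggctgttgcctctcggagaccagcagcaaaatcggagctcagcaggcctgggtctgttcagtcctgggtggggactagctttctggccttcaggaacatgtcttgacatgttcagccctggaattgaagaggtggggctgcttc

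The Mcm5 and Mcm6 stretches held 2 and 3 E2F-type matches with 2 CCAAT boxes each, the Top2a stretch 2 CHR matches and 5 CCAAT boxes, the Ccnb2 stretch 1 and 3, and the Cdk1 stretch all 3 kinds. The Cdkn1a stretch held none of them, and neither did the window of the other RefSeq start of this gene. Of the 55 genes, 45 had a RefSeq window and these had 53 windows in all, which were searched over the 250 bases before the start. An E2F-type octamer was present in 18.9% of them (10 of 53), against 1.86% of all 32851 windows. By role it was in 28.0% of the 25 replication windows (Mcm5, Mcm6, Mcm7, Orc1, Cdc6, Pola1 and Rfc3) and in 0 of the 10 mitosis windows. CCAAT was in 90.0% of the mitosis windows and 60.0% of the replication windows, against 33.8% of all windows, and CHR in 40.0% and 12.0%, against 16.0%. Outside replication, a window each of Cdk1, Cdk2 and Uhrf1 held an E2F-type octamer. These matches are a description of letters. Cdk2 and Uhrf1 were not called with maturation in either subset, and Rfc3, whose window held an E2F-type octamer, did not pass the test in any comparison.

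Mature and immature thymic cells were compared to ask how the cycle genes differ with maturation. A gene was called when its adjusted p in limma was below 0.1 and its difference exceeded 1 on the log2 scale, that is 2-fold, on log2 of the normalized read count plus 1. In thymic cDC1, 47 of the 55 genes fell and 2 rose, where 24.5% of all 14970 genes tested fell and 21.3% rose. In thymic cDC2, 46 fell and 1 rose, against 17.0% and 18.6% of all genes. The median log2 fold change over the 55 genes was -2.80 in cDC1 and -2.49 in cDC2, beside -0.04 and 0.04 over all genes tested. Within lane 8 the numbers called in either direction were 49 and 47, and without the libraries that stood apart they were again 49 and 47. The values of the mature samples lay wholly below the immature ones for 47 genes in cDC1 and 48 in cDC2, which was so for 28.1% and 28.8% of all genes.

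**Figure D2:**
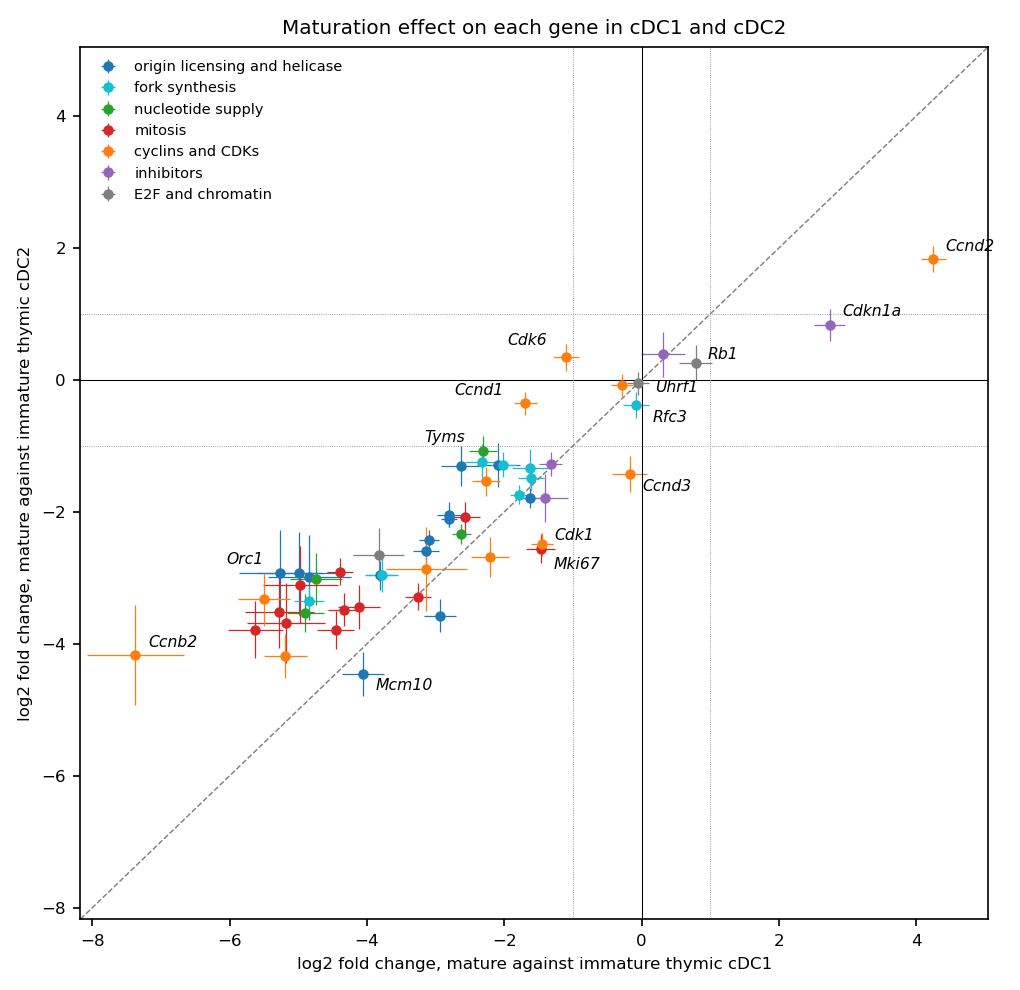
Maturation log2 fold change (mature minus immature thymic cells) of the 55 genes in cDC1 (x axis) and cDC2 (y axis), with bars for the SE and colours for the role. Dotted lines mark -1 and 1 and the dashed line equal change. Most genes lie in the lower left, with Ccnd2 at 4.24 and 1.83 at the upper right, Cdkn1a at 2.74 and 0.83, and Ccnb2 at -7.37 and -4.17.

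All 13 licensing and helicase genes fell in both subsets, with medians of -3.09 in cDC1 and -2.59 in cDC2. Mcm10, which helps to activate the loaded helicase, was at 755, 685, 935 and 757 in the 4 immature thymic cDC1 samples and at 60.8, 27.7 and 56.8 in the 3 mature ones. In cDC2 it was at 965, 940.1 and 969 in immature and 56.8, 66.8 and 20.4 in mature samples, so that in each subset the mature samples were far below the immature ones. Its log2 fold change was -4.06 ± 0.31 (SE) in cDC1 and -4.45 ± 0.33 (SE) in cDC2, with adjusted p of 6.63e-10 and 1.11e-09 in limma, and the cDC2 value was the lowest among the 55 genes in that subset. Mcm5 was at 3905, 4124, 4683 and 3132 in immature cDC1 and 195, 314 and 351 in mature cDC1. It was at 3408, 3482 and 3997 in immature cDC2 and 471, 581 and 366 in mature cDC2. Every mature sample was again below every immature sample, with log2 fold changes of -3.81 and -2.96. The 6 MCM2 to MCM7 subunits, which form 1 ring, fell by different amounts. Their log2 fold changes ran from -3.81 (Mcm5) to -1.62 (Mcm4) in cDC1 and from -2.96 to -1.79 for the same subunits in cDC2.

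The loading factors fell with the ring. Cdc6 changed by -2.94 and -3.57 on the log2 scale in cDC1 and cDC2, and Cdt1 by -2.09 and -1.29. Orc1, the largest ORC subunit, was low throughout, at 127 to 162 in immature and 0 to 19.1 in mature thymic cDC1, with log2 fold changes of -5.26 and -2.92. Cdc45, which completes the active helicase, changed by -4.99 and -2.93 on the log2 scale. Gins1 and Gins2, subunits of the GINS complex, changed by -4.84 and -2.63 in cDC1 and by -2.99 and -1.30 in cDC2.

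Of the 8 fork genes, 7 fell in each subset, with medians over the 8 of -1.90 and -1.41. The exception was Rfc3, a subunit of the clamp loader, at 353, 377, 437 and 244 in immature and 295, 383 and 309 in mature cDC1. The cDC2 samples were at 378, 399.7 and 459.5 in immature and 305, 315 and 324 in mature cells. The ranges overlapped in cDC1, with a log2 difference of -0.08 ± 0.19 (SE), adjusted p = 0.743 in limma, and did not overlap in cDC2, where the difference was -0.39 ± 0.20 (SE), adjusted p = 0.124. Rfc4, another subunit of the same loader, fell by contrast, with log2 fold changes of -2.32 and -1.24. Pola1, the catalytic subunit of the polymerase that starts each new strand, was at 1349, 1363, 1100.1 and 1345 in immature and 35, 39.9 and 60 in mature cDC1. It was at 1886, 2113 and 1879 in immature and 172, 226 and 177 in mature cDC2, and its log2 fold changes were -4.84 and -3.36. Pcna was at 1452 ± 401 (SD, n = 3) in mature cDC1 and 2609 ± 474 (SD, n = 3) in mature cDC2, and its log2 fold changes were -2.01 and -1.28. Reads of the processed copy Pcna-ps2, which may share reads with Pcna, reached 423. Pole, Fen1, Lig1 and Prim1, which extend, trim, seal and prime the strands, had log2 fold changes from -3.78 (Prim1) to -1.61 (Pole) in cDC1 and from -2.95 (Prim1) to -1.33 (Fen1) in cDC2.

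All 4 nucleotide supply genes fell in both subsets. Rrm2, the inducible subunit of ribonucleotide reductase, was at 2132, 2209, 2436 and 2364 in immature and 127, 36.4 and 92.7 in mature cDC1. The corresponding cDC2 values were 1588, 1814 and 1857 and 146, 179.6 and 131. Its partner subunit Rrm1 had log2 fold changes of -2.62 and -2.34 beside -4.90 and -3.53 for Rrm2. Tk1, thymidine kinase, changed by -4.74 and -3.02, and Tyms, thymidylate synthase, by -2.31 and -1.07. The Tyms call in cDC2 was lost without immature thymic cDC2 replicate 3, where the log2 fold change was -0.96. Together, 24 of the 25 genes of licensing, fork and nucleotide supply fell in each subset.

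All 11 mitosis genes fell in both subsets, and their medians of -4.39 in cDC1 and -3.44 in cDC2 were lower than those of the 25 replication genes, -2.80 and -2.34. Mki67 (chr7:135689784-135716361 in mm10, minus strand), the gene of the Ki-67 antigen, was at 14159.6, 11250.3, 10033 and 11111 in immature thymic cDC1 and at 4037, 4305 and 4183 in mature cDC1. In cDC2 it was at 14626, 13141 and 12274 in immature and 1506, 2544 and 3023 in mature samples. The groups did not overlap in either subset, and the log2 fold change was -1.47 ± 0.21 (SE), adjusted p = 4.37e-06 in cDC1 and -2.56 ± 0.22 (SE), adjusted p = 1.02e-08 in cDC2 (limma). Top2a was at 8950.1, 8624, 7763 and 8561 in immature and 964, 939 and 768 in mature cDC1. It was at 10045, 10851 and 10698 in immature and 899.8, 1160.2 and 1207 in mature cDC2. All mature samples were below all immature ones, and the log2 fold changes of -3.25 ± 0.19 (SE), adjusted p = 8.37e-12 and -3.28 ± 0.20 (SE), adjusted p = 6.68e-11 (limma) were nearly equal in the 2 subsets. The plot of single genes by sample sets Mki67 beside Top2a, with mature cDC1 at a mean of 4175 ± 134 (SD, n = 3) for Mki67 and 890.3 ± 107 (SD, n = 3) for Top2a.

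Bub1, a kinase of the spindle checkpoint, was at 1279.8, 1054, 1129.7 and 1186 in immature and 18.4, 10.4 and 57.6 in mature cDC1. It was at 1367, 1701 and 1788 in immature and 129, 174 and 69.1 in mature cDC2. The mature samples were thus below the immature ones by log2 fold changes of -5.63 and -3.78. Birc5 (survivin) and Aurkb, partners in the chromosomal passenger complex, fell by similar amounts to each other, at -5.27 and -5.18 in cDC1 and -3.52 and -3.68 in cDC2. Plk1, a kinase of mitotic entry, changed by -4.97 and -3.10. Bub1b, which works with Bub1, changed by -4.39 and -2.90. The motor genes Kif11 and Cenpe fell, with -4.46 and -4.33 in cDC1 and -3.79 and -3.48 in cDC2. Cdc20, an activator of the ligase that ends mitosis, changed by -4.11 and -3.44. Aurka, the spindle pole kinase, had the smallest fall of the 11 in cDC2 and the smallest after Mki67 in cDC1, at -2.08 and -2.57.

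The cyclins of S phase and mitosis fell in both subsets, as did their kinase partner. Ccnb2 (cyclin B2) was at 1359, 1300.1, 1663 and 1309.7 in immature and 0, 13.9 and 40 in mature cDC1, and the mature cDC1 samples held 0 to 50 reads. The cDC2 samples were at 1415, 1314 and 1411 in immature and 90.6, 111 and 43.2 in mature samples. No mature sample reached an immature one, and the log2 fold changes of -7.37 ± 0.71 (SE) and -4.17 ± 0.76 (SE), the first of which was the lowest among the 55 genes, understate changes at such low values. Ccnb1 (cyclin B1) was at 1025, 833, 1075 and 825 in immature and 7.37, 41.6 and 24 in mature cDC1, and changed by -5.49 in cDC1 and -3.33 in cDC2. Ccna2 (cyclin A2) was at 2325, 2593 and 2794 in immature and 161, 213 and 80.1 in mature cDC2, and changed by -5.19 and -4.18. Cdk1, the kinase these cyclins activate, was at 1546, 1605, 1930.2 and 1873 in immature and 535, 697 and 678 in mature cDC1. It was at 1233, 1243 and 1545 in immature and 209, 279 and 226 in mature cDC2. The groups were separate in both subsets, and the log2 fold change was -1.45 ± 0.16 (SE), adjusted p = 1.95e-07 in cDC1 and -2.49 ± 0.18 (SE), adjusted p = 5.08e-10 in cDC2 (limma). The G1/S cyclins Ccne1 and Ccne2 were low, with means of 234 and 285 in immature thymic cDC1, and changed by -2.21 and -3.14 in cDC1 and -2.68 and -2.86 in cDC2. Their partner Cdk2 was not called, with log2 differences of -0.28 ± 0.15 (SE) and -0.08 ± 0.17 (SE) and overlapping samples.

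The 3 D-type cyclins, which couple outside signals to the cycle, differed in direction. Ccnd1 (cyclin D1) was at 11821, 10179, 8596 and 12702 in immature and 3681, 2653 and 3729 in mature cDC1. In cDC2 it was at 15686, 15693 and 12243 in immature and 11678, 10726 and 11443 in mature samples. It fell in cDC1, by a log2 fold change of -1.69 ± 0.16 (SE), adjusted p = 1.94e-08, and was not called in cDC2, at -0.36 ± 0.17 (SE), adjusted p = 0.1003 (limma). The mature Ccnd1 values lay below the immature ones in both subsets. Ccnd2 (cyclin D2, chr6:127125162-127152193 in mm10, minus strand) was at 117, 101, 78 and 87.9 in immature and 1769.7, 1381 and 2447 in mature cDC1. It was at 1756, 1761 and 1464 in immature and 6027, 5529 and 6113 in mature cDC2. It rose in both subsets, with every mature sample above every immature one, by 4.24 ± 0.18 (SE), adjusted p = 1.2e-13 in cDC1 and 1.83 ± 0.20 (SE), adjusted p = 1.71e-07 in cDC2 (limma), and was the single gene of the 55 that rose in both. Ccnd3 (cyclin D3) was at 3153, 2948, 3102 and 2298 in immature and 1808, 2246 and 3991 in mature cDC1, which overlapped. It was at 3829, 3758 and 4011 in immature and 1787, 1531 and 1085 in mature cDC2, which did not. Its log2 difference was -0.17 ± 0.26 (SE), adjusted p = 0.591 in cDC1, and it fell by a log2 fold change of -1.43 ± 0.28 (SE), adjusted p = 0.000231 in cDC2 (limma).

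Per kilobase of exon, the order of the D-type cyclins was the same in immature cells of both subsets, with Ccnd1 far above the others. Immature thymic cDC1 averaged 2299 normalized reads per kilobase for Ccnd1, 328 for Ccnd3 and 10.2 for Ccnd2. Mature cDC1 averaged 712, 306 and 198 per kilobase for the same 3 genes, and mature cDC2 2396, 167 and 626. Exons of Ccnd2 overlap those of 2 antisense genes on the other strand, and exons of Ccnd1, Ccnd3 and Cdkn1a those of 1 gene each. The strand setting of the counting is not given in the sources used here, so reads in those stretches may belong to either gene.

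The kinases that bind D-type cyclins differed as well. Cdk4 was at 2616, 2737, 3321 and 2011 in immature and 547, 490.4 and 609 in mature cDC1. It was at 2085, 2214 and 2748 in immature and 954, 977 and 553 in mature cDC2. It fell in both, by log2 fold changes of -2.26 ± 0.21 (SE), adjusted p = 9.9e-09 and -1.54 ± 0.22 (SE), adjusted p = 9.03e-06 (limma), without overlap between the groups. Cdk6 was at 1011, 811, 724 and 941 in immature and 455, 286 and 496 in mature cDC1. The cDC2 samples were at 920.2, 964 and 734 in immature and 1049, 1038 and 1228 in mature samples, the latter being the higher. It fell in cDC1, by -1.11 ± 0.19 (SE), adjusted p = 4.56e-05, and was not called in cDC2, at 0.35 ± 0.20 (SE), adjusted p = 0.178 (limma). The cDC1 call was lost without mature cDC1 replicate 2, where the log2 fold change was -0.86.

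Among the inhibitors, Cdkn1a (p21, chr17:29090976-29100727 in mm10, plus strand) stood out for its level. It was at 2102, 2022, 3104 and 1837 in immature thymic cDC1 and at 13053, 15493 and 16021 in mature cDC1. In cDC2 it was at 10039.6, 8199.8 and 10405 in immature and 15096, 19697 and 16307 in mature samples. The mature samples were above the immature ones in both subsets. It rose in cDC1, by a log2 fold change of 2.74 ± 0.23 (SE), adjusted p = 2.31e-09, whereas in cDC2 the difference of 0.83 ± 0.24 (SE), adjusted p = 0.00802 (limma) passed the p threshold but not the 2-fold minimum. Over the 6 groups its mean increased in the order splenic cDC1 (455), immature thymic cDC1 (2266), splenic cDC2 (3539), immature thymic cDC2 (9548), mature cDC1 (14856) and mature cDC2 (17033). The last 2 did not differ beyond their spread, at 0.19 ± 0.24 (SE), adjusted p = 0.617 in limma. Per kilobase its mature levels of 4181 and 4794 were the highest of the 55 genes in those groups.

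Cdkn2c (p18), an inhibitor of CDK4 and CDK6, was at 476, 392, 423 and 449 in immature and 140.1, 175 and 209 in mature cDC1. It was at 519.9, 447 and 494 in immature and 182, 198 and 225 in mature cDC2. It fell in both subsets, by -1.33 ± 0.17 (SE), adjusted p = 1.36e-06 and -1.27 ± 0.18 (SE), adjusted p = 9.61e-06 (limma), with separate groups. Cdkn2d (p19), of the same family, was at 223, 276, 406 and 239 in immature and 49.8, 133 and 167 in mature cDC1. It was at 573, 565 and 723 in immature and 170.4, 209 and 157 in mature cDC2. It fell as well, by -1.41 ± 0.34 (SE), adjusted p = 0.00135 and -1.79 ± 0.37 (SE), adjusted p = 0.000405 (limma), and the cDC1 call was lost without mature cDC1 replicate 1 (log2 fold change -0.89). Cdkn1b (p27) was at 4774, 3286, 2515 and 5452 in immature and 4778, 5022 and 4506 in mature cDC1. In cDC2 it was at 2782, 2638 and 1838 in immature and 2594, 2575 and 4552 in mature samples. Those samples overlapped, and Cdkn1b was not called, at 0.31 ± 0.32 (SE), adjusted p = 0.416 and 0.39 ± 0.34 (SE), adjusted p = 0.372 (limma).

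E2f1, an activator of S phase genes, fell in both subsets, with log2 fold changes of -3.83 and -2.65. Rb1, the pocket protein that binds it, was at 1685, 1495, 1019 and 1977 in immature and 2271, 3057 and 2489 in mature cDC1. It was at 2482, 2708 and 2257 in immature and 2568, 2515 and 4020.1 in mature cDC2. Its log2 difference of 0.78 ± 0.25 (SE), adjusted p = 0.00981 in cDC1 passed the p threshold without reaching 2-fold, and that in cDC2 was 0.26 ± 0.26 (SE), adjusted p = 0.451 (limma). Uhrf1, which guides maintenance of DNA methylation at the fork, was at 2509, 2256, 2637 and 2398 in immature and 2267, 1872 and 3083 in mature cDC1. It was at 2667, 2518 and 2866 in immature and 2734, 2784 and 2269 in mature cDC2. These samples overlapped, with log2 differences of -0.05 ± 0.16 (SE) and -0.05 ± 0.17 (SE) that did not pass the test.

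Other genes of the pathway, outside the 55, were counted in the same way. Of 40 further S phase genes tested, 27 fell and 1 rose in each subset, with medians of -1.62 in cDC1 and -1.50 in cDC2. The gene that rose was Gins3, a GINS subunit, from a mean of 144 to 1482 in cDC1 and from 243 to 1088 in cDC2. Cdca7 was among the largest falls in both subsets, at -5.18 in cDC1. Of 51 further G2 and M phase genes, 48 fell in cDC1 and 46 in cDC2, with medians of -3.96 and -3.07. None rose in limma, edgeR or DESeq2, and 0 were higher at an unadjusted p under 0.05 in limma. In cDC1 the largest falls were those of Kif2c (-7.20), Hmmr (-6.91) and Anln (-5.99). Of 18 cycle transcription factors and pocket proteins, 11 fell and 1 rose in cDC1, and 10 fell and 0 rose in cDC2. E2f8 and E2f7, repressors of late S phase, were among the largest falls in both, at -7.47 and -6.30 in cDC1 and -3.64 and -3.28 in cDC2. The cDC1 values rest on few reads, with 1 to 31 of E2f8 and 0 to 9 of E2f7 per mature cDC1 sample. The gene that rose was Rbl1 (p107), by 1.08 in cDC1.

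Of 23 further genes known to brake proliferation, 8 rose and 4 fell in each subset, where 21.3% and 24.5% of all genes did in cDC1 and 18.6% and 17.0% in cDC2. Cdkn2b (p15) was at 0 to 9.36 in immature and at 709.7 to 923 in mature cDC1, and rose by a log2 fold change of 5.86 in cDC2. Gadd45b, induced by stress and NF-kB, was at 659.7 to 983 in immature and at 26832 to 37871 in mature cDC1, and rose by 3.10 in cDC2. Ccng2, a cyclin G known from resting cells, was at 487 to 931 in immature and at 12039 to 14772 in mature cDC1. The largest falls in cDC1 were those of Cdkn3, Trp53 and Pkmyt1, at -5.22, -1.76 and -1.61. The median over the 23 genes was 0.78 in cDC1 and 0.54 in cDC2.

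The difference between the maturation effects of cDC2 and cDC1 was tested as an interaction. Of the 55 genes, 13 were called with a higher effect in cDC2 and 5 with a lower one, where 8.34% and 5.25% of all genes were. Within lane 8 the total was 10 in place of 18, and without the libraries that stood apart 19. The replication genes called with a higher effect, that is a smaller fall in cDC2, numbered 7, namely Gins2, Orc1, Pola1, Rfc4, Rrm2, Tyms and Tk1. No replication gene was called with a lower effect, although Cdc6 and Mcm10 fell further in cDC2. Ccnb2 had the largest such difference (3.20 ± 1.04 (SE), adjusted p = 0.0479), followed by Orc1 (2.34 ± 0.89 (SE), adjusted p = 0.0896) and Ccnb1 (2.17 ± 0.56 (SE), adjusted p = 0.0129), all in limma. The Orc1 call was lost in 16 of the 20 fits that each left out 1 sample. Cdk6 and Ccnd1, which were called lower with maturation in cDC1 alone, differed by 1.45 ± 0.28 (SE), adjusted p = 0.00156 and 1.33 ± 0.24 (SE), adjusted p = 0.000785. In the other direction, the effect was lower in cDC2 for Ccnd2 (-2.41 ± 0.27 (SE), adjusted p = 4.54e-06) and Cdkn1a (-1.90 ± 0.33 (SE), adjusted p = 0.000685), which rose more in cDC1. It was also lower for Ccnd3 (-1.25 ± 0.38 (SE), adjusted p = 0.0323), Mki67 (-1.09 ± 0.31 (SE), adjusted p = 0.0221) and Cdk1 (-1.04 ± 0.24 (SE), adjusted p = 0.00639), which fell further in cDC2, all in limma. Without single libraries Mki67 (-0.80 without mature cDC2 replicate 1), Ccnd3 (-0.92 without mature cDC1 replicate 3) and Cdk1 (-0.93 to -0.99 without any of 5 libraries) came under the 2-fold minimum, as did Rrm2 (0.85 without mature cDC1 replicate 2). Rfc4 lost its call without any of 7 single libraries (0.92 to 1.11), Bub1 without any of 3 (1.32 to 1.73), Gins2 without any of 3 (0.97 to 1.23) and Ccnb2 without mature cDC2 replicate 1 or 2 (2.93 to 3.08).

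Mature cDC2 and mature cDC1 were then compared directly. Of the 55 genes, 21 were higher and 1 lower in cDC2, where 14.6% and 4.36% of all genes were. The median log2 difference was 0.77, beside 0.14 over all genes tested (0.16 under TMM scaling), and the differences are to be read relative to that shift. These mature samples are all from lane 8, where 21 genes were called, and 24 were called without the libraries that stood apart. A fit of the 2 mature groups alone called 10. The genes called higher were 8 of replication, 6 of mitosis, 6 cyclins and CDKs and E2f1. Bub1 had a log2 difference of 2.31 ± 0.43 (SE), adjusted p = 0.000497, Ccnb1 of 2.26 ± 0.41 (SE), adjusted p = 0.000371 and Pola1 of 2.09 ± 0.23 (SE), adjusted p = 1.68e-06 (limma), with Ccnb1 at 77.5, 125 and 97.3 in mature cDC2 and the other values as given above, and none of the 3 overlapped. The cDC1 values of these genes were low, with 6 to 72 reads of Bub1, 4 to 30 of Ccnb1 and 19 to 75 of Pola1 per mature cDC1 sample. The gene called lower in cDC2 was Cdk1, at -1.42 ± 0.18 (SE), adjusted p = 6.43e-06 (limma), and Mki67, Ccnd3 and Cdc6 passed the p threshold below 2-fold, at -0.88, -0.82 and -0.84. Without single libraries the count ranged from 18 to 27, and several of the genes called higher lost the call. Without mature cDC1 replicate 1 the log2 difference came to 0.72 for Aurkb, 0.77 for Prim1 and 0.76 for E2f1, and without replicate 2 to 0.87 for Kif11 and 0.91 for Ccna2, while Gins1 had an adjusted p of 0.136 in limma. Tk1 came to 0.77 without mature cDC1 replicate 3. Plk1 lost the call without mature cDC1 replicate 2 or mature cDC2 replicate 2 (adjusted p = 0.127 and 0.106 in limma, in that order), and Cdc45 without mature cDC1 replicate 1 or any mature cDC2 sample (0.29 to 1.69). Of the further pathway genes, 28 of 51 of G2 and M phase, 6 of 40 of S phase and 4 of 18 transcription factors were higher in mature cDC2, and 0, 1 and 0 lower. Cenpf (2.28), Espl1 (2.28) and Racgap1 (2.23) led the G2 and M phase genes, and Myc (2.97) the transcription factors. Of the 23 brakes, Gadd45g was higher (1.31) and Ccng2 lower (-1.04).

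Immature thymic and splenic cells were compared to ask how the tissue bears on the same genes. The immature thymic samples also serve in the maturation comparisons, so the values of both are given side by side and not related to each other. In cDC1, 6 of the 55 genes were higher in thymus and 0 lower, where 4.26% and 4.52% of all genes were. In cDC2, 7 were higher and 0 lower, against 8.3% and 5.87%. The count in cDC2 was 12 by edgeR or DESeq2, 12 and 11 without splenic cDC2 replicates 1 and 2 and 11 without immature thymic cDC2 replicate 1. At an unadjusted p under 0.05 in limma 0 and 1 of the 55 were lower in thymus, and edgeR and DESeq2 called 0 lower in cDC1 and 1 in cDC2. The median log2 difference was 0.41 in cDC1 and 0.61 in cDC2, beside 0.0043 and 0.021 over all genes. In cDC1 the thymic samples lay wholly above the splenic ones for 24 genes and wholly below for 0 (8.84% and 8.92% of all genes). In cDC2 they did so for 39 and 3 genes (22.2% and 17.1%). Within lane 8 the calls numbered 5 in cDC1 and 9 in cDC2, within lane 5, with 1 thymic sample in each subset, 0 and 4, and without the libraries that stood apart 4 and 12.

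**Figure D3:**
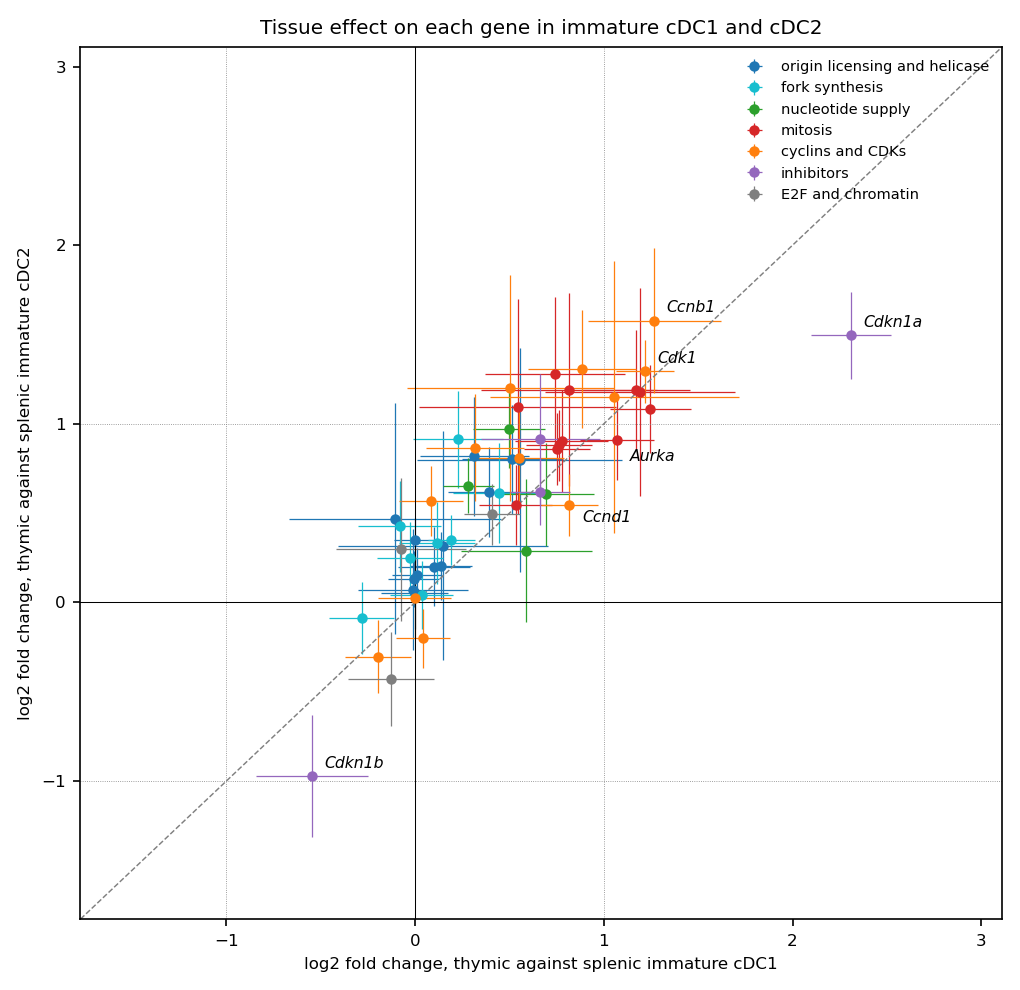
Tissue log2 fold change (immature thymic minus splenic cells) of the 55 genes in cDC1 (x axis) and cDC2 (y axis), with bars for the SE and colours for the role. Dotted lines mark -1 and 1 and the dashed line equal change. Most mitosis genes lie to the upper right of most replication genes (medians 0.78 and 1.08 against 0.14 and 0.35), with Cdk1 at 1.22 and 1.30 and Cdkn1a at 2.31 and 1.49.

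Replication and mitosis genes differed in how far the tissues stood apart. None of the 25 replication genes was called in either subset, with medians of 0.14 in cDC1 and 0.35 in cDC2, although at adjusted p alone 1 (Rrm2) and 8 of them were higher in thymus, against 7.72% and 14.9% of all genes, and at an unadjusted p under 0.05 in limma 3 and 10. edgeR and DESeq2 gave 0 calls for these 25 genes too. Mcm5 was at 3133, 3465, 4687 and 3507 in splenic cDC1 and 3502, 2525 and 3543 in splenic cDC2, which overlapped the immature thymic values given above. Its log2 differences were 0.10 ± 0.19 (SE) and 0.20 ± 0.22 (SE). Of the 11 mitosis genes, 3 were called higher in each subset and the medians were 0.78 and 1.08. The thymic samples lay wholly above the splenic ones for 10 of the 11 in cDC1 and for all 11 in cDC2.

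Cdk1 was at 838, 799, 565 and 805 in the 4 splenic cDC1 samples and 553, 547 and 528 in the 3 splenic cDC2 samples. Every thymic sample of the same subset was higher, and the difference was 1.22 ± 0.15 (SE), adjusted p = 7.69e-06 in cDC1 and 1.30 ± 0.18 (SE), adjusted p = 1.81e-05 in cDC2 (limma). Ccnb1 was at 371, 491, 283 and 435 in splenic cDC1 and 376, 422 and 231 in splenic cDC2. It was higher in thymus by 1.27 ± 0.35 (SE), adjusted p = 0.0187 and 1.58 ± 0.41 (SE), adjusted p = 0.00809 (limma), and within lane 8 the cDC1 call was lost at an adjusted p of 0.19. Cenpe was at 1315, 1206, 658 and 1072 in splenic cDC1 and 2810.5, 2537, 2108 and 2368 in immature thymic cDC1, a difference of 1.25 ± 0.21 (SE), adjusted p = 0.000307 (limma). In cDC2 its difference was 1.08, which came to 0.94 without splenic cDC2 replicate 3. Ccna2 was at 961, 1348 and 852 in splenic cDC2, below its immature thymic cDC2 values, with a difference of 1.31 ± 0.33 (SE), adjusted p = 0.007 (limma). Cdc20 was higher in both subsets (1.17 and 1.19), Aurka in cDC1 (1.07, and 0.97 without immature thymic cDC1 replicate 3) and Bub1 in cDC2 (1.28). The Cdc20 calls were lost within lane 8, and so was the Bub1 call, which was also lost without splenic cDC2 replicate 3 (adjusted p = 0.155 in limma) or immature thymic cDC2 replicate 3 (adjusted p = 0.12 in limma). Mki67 was at 8391, 10460.1, 5784 and 7974 in splenic cDC1 and 8279, 10852 and 8477 in splenic cDC2, and its differences of 0.53 ± 0.19 (SE), adjusted p = 0.0839 and 0.54 ± 0.22 (SE), adjusted p = 0.0945 (limma) passed the p threshold below 2-fold. Top2a was at 5535, 6168, 3181 and 5700.1 and 5516, 6977 and 4869, with differences of 0.76 ± 0.17 (SE), adjusted p = 0.00425 and 0.88 ± 0.20 (SE), adjusted p = 0.00319 (limma), again below 2-fold.

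The largest tissue difference in cDC1 was that of Cdkn1a. It was at 531, 364, 548 and 376 in splenic cDC1 and 4181, 2121 and 4313 in splenic cDC2. The thymic samples of each subset were all higher, by 2.31 ± 0.21 (SE), adjusted p = 1.34e-07 in cDC1 and 1.49 ± 0.24 (SE), adjusted p = 0.000141 in cDC2 (limma). Among the D-type cyclins, Ccnd1 was at 6409, 6742, 5307 and 5930.3 in splenic cDC1 and 8874, 11699.5 and 9345 in splenic cDC2. Ccnd2 was at 89.6, 86.8, 86.8 and 95.4 and 937, 1178 and 1261 in the same groups, and Ccnd3 at 1549, 1780.2, 2856 and 1820.4 and 2371, 1555 and 2909. None of the 3 reached 2-fold and so none was called, the tissue differences being 0.82 ± 0.15 (SE), 0.08 ± 0.17 (SE) and 0.55 ± 0.24 (SE) in cDC1 and 0.55 ± 0.17 (SE), 0.57 ± 0.20 (SE) and 0.81 ± 0.28 (SE) in cDC2. The thymic samples nevertheless lay wholly above the splenic ones for Ccnd1 in cDC1 and for all 3 in cDC2. Those of Ccnd2 and Ccnd3 overlapped in cDC1.

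Cdk4 and Cdk6 were not called between tissues. Cdk4 was at 2371, 2374, 3414 and 2501 in splenic cDC1 and 2647, 1844 and 2470.3 in splenic cDC2, with differences of -0.0019 ± 0.19 (SE) and 0.02 ± 0.22 (SE). Cdk6 was at 1041, 1152, 806 and 996 and 911, 1263 and 1062, with differences of -0.20 ± 0.18 (SE) and -0.30 ± 0.20 (SE). Neither passed the test, and the samples overlapped in both subsets. Cdkn1b was at 7959.6, 6821, 3019 and 5962 in splenic cDC1 and 4099, 7077 and 3518 in splenic cDC2. It was the lone inhibitor with a negative tissue difference, at -0.55 ± 0.29 (SE), adjusted p = 0.308 in cDC1 and -0.97 ± 0.34 (SE), adjusted p = 0.0482 in cDC2 (limma), the second of which passed the p threshold just under 2-fold. In edgeR on the recovered reads it was called lower in thymic cDC2, with a log2 difference of -1.03, and in limma it was called without any of 4 single libraries (-1.05 to -1.18). Cdkn2c was at 252, 259, 279.8 and 308 and 321, 306 and 321 in splenic cDC1 and cDC2, with differences of 0.66 ± 0.16 (SE) and 0.62 ± 0.18 (SE). Cdkn2d was at 159, 137, 241 and 179.5 and 449, 227 and 342, with differences of 0.66 ± 0.32 (SE) and 0.91 ± 0.37 (SE).

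The tissue effect was not shown to differ between the subsets for any of the 55 genes. The interaction gave 0 calls in limma, where 4.98% of all genes were called. At an unadjusted p under 0.05 it gave 1 higher (Mcm6) and 1 lower (Cdkn1a) effect in cDC2, and edgeR and DESeq2 on the recovered reads gave 0 calls each. Cdkn1a had the largest difference, at -0.82 ± 0.32 (SE), adjusted p = 0.205 (limma). It was called without splenic cDC2 replicate 2 (-1.15), and without the 4 libraries that stood apart both Cdkn1a (-1.09) and Rfc4 (1.09) were. Of the further pathway genes, the G2 and M phase list had 3 of 51 higher in thymus in cDC1 and 18 in cDC2, with 0 lower, and medians of 0.77 and 0.95. Ube2c, the ubiquitin-conjugating enzyme of mitotic exit, led both, at 1.19 and 1.47. The 40 S phase genes gave 0 calls in either subset by limma, edgeR or DESeq2 (3 and 7 at an unadjusted p under 0.05 in limma), with medians of 0.09 and 0.35. Of the transcription factors, E2f2 was higher in thymic cDC1 (1.46) and none was called in cDC2 by limma, edgeR or DESeq2 (5 at an unadjusted p under 0.05 in limma). Of the brakes, Foxo1 and Sesn3 were lower in thymic cDC1 (-2.12 and -1.07), and Tob2, Sesn3 and Foxo3 in thymic cDC2 (-1.40, -1.28 and -1.20), where Cdkn2b, named after its value was seen, was higher at a mean of 15.5 against 2.54.

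Finally, cDC2 and cDC1 were compared within the immature cells of each tissue. In spleen 3 of the 55 genes were higher in cDC2 and 0 lower by limma, edgeR or DESeq2 (3 lower at an unadjusted p under 0.05 in limma), where 9.93% and 6.7% of all genes were. In immature thymic cells 3 were higher and again 0 lower by any of these (2 at an unadjusted p under 0.05), against 11.0% and 5.42%. The medians were -0.09 and 0.14, beside 0.02 and 0.01 over all genes. Within lane 8 the calls numbered 3 and 2, by edgeR 2 and 3, and without the libraries that stood apart 4 and 3. Ccnd2 was the gene that set the subsets most apart, at 86.8 to 95.4 in splenic cDC1 against 937 to 1261 in splenic cDC2. Its differences were 3.62 ± 0.18 (SE), adjusted p = 6.16e-12 in spleen and 4.11 ± 0.18 (SE), adjusted p = 2.77e-12 in immature thymic cells (limma). Cdkn1a was higher in cDC2 by 2.91 ± 0.23 (SE), adjusted p = 4.85e-09 in spleen and 2.10 ± 0.23 (SE), adjusted p = 5.92e-07 in immature thymic cells (limma). Rb1 was at 2114, 2019, 1089.8 and 1552 in splenic cDC1 and 2880.0, 4495 and 2858 in splenic cDC2, a difference of 1.02 ± 0.25 (SE), adjusted p = 0.00362 (limma) that came to 0.83, 0.997 and 0.81 without splenic cDC1 replicate 3, splenic cDC1 replicates 4 and 5, or splenic cDC2 replicate 2. Cdkn2d was higher in immature thymic cDC2, at 1.15 ± 0.34 (SE), adjusted p = 0.0187 (limma), and in spleen its difference of 0.90 ± 0.34 (SE), adjusted p = 0.0636 (limma) stayed under 2-fold. No replication or mitosis gene was called between the subsets in either tissue, whether by limma, edgeR or DESeq2. Their log2 differences ran from -0.71 (Cdc45) to 0.39 (Pola1) in spleen and from -0.60 (Cdc20) to 0.61 (Pola1) in immature thymic cells. At an unadjusted p under 0.05 in limma, 2 replication genes (Mcm6 and Gins2) were lower in splenic cDC2 and 1 (Pola1) was higher in immature thymic cDC2, and no mitosis gene passed in either tissue.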

How the data were processed

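RNAseq was analysed for 21 libraries of sorted B6 cDCs in 6 groups taken from the sample labels. The authors prepared TruSeq Stranded mRNA libraries, trimmed paired reads with Cutadapt and used STAR (version 2.6 in their processing notes) to align to mm10, HTSeq-count for reads per Ensembl gene and DESeq2 (version 1.24.0) for normalization. The Ensembl release and strand setting are not given in the sources used here. The deposited signal of a gene is its read count over the size factor of the library. Dividing by the value of 1 read gave whole reads (within 0.01 reads) for 100% of the values.

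The main test was limma (version 3.58.1 in R 4.3.3; lmFit, eBayes with trend) on log2(deposited value + 1), a pseudocount of 1, for 14970 genes that reached 10 in at least 3 samples, with 1 mean per group and Benjamini-Hochberg adjustment over all genes tested. Calls needed an adjusted p below 0.1 and a log2 fold change beyond 1 in size. All 55 genes passed the filter. Fold changes are on the log2(value + 1) scale and understate changes of low genes. Errors are SE of log2 fold changes or SD of samples. Where libraries shared pool, index and lane, and the chi-square of their counts per degree of freedom was the lowest of the group (2.44 against 25.0 to 176 for splenic cDC1 replicates 4 and 5), their mean was 1 sample. Immature thymic cDC1 replicates 3 and 4 shared these as well but differed by 92.8 and were kept apart.

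The 55 genes, the further pathway lists and the marker lists of 13 cell types or states were chosen with earlier results of these data known. Named in full were the proliferation markers, D-type cyclins and their kinases, inhibitors and Rb1, and per comparison of 2 groups up to 3 called genes with the largest rise and fall given a mean of at least 100 in the higher group. Mcm5, Rfc3, Rrm2 and Uhrf1 were added after their values were seen. Gene positions, exon lengths and overlaps came from GENCODE M21, and upstream sequences from RefSeq (GRCm38.p6). The alternatives covered edgeR (version 4.0.16), on the recovered reads, and DESeq2 (version 1.42.0) as tests, scaling, pseudocount, filter, thresholds, lane, pool block, thinning and the omission of each sample. The methods were tested on simulated data.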

Additional observations from a re-analysis of the deposited data

Results flagged for a closer look

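In groups of 4 samples, the highest or lowest sample was compared with its nearest neighbour by Dixon's ratio at its 95% critical value. Of 110 tests, 6 passed, beside the 1 in 20 that chance gives for separate tests. The genes were read in the same samples and are not separate tests, so this number cannot show whether a sample is outlying. The 6 are listed as values only. In splenic cDC1, replicate 3 stood apart for 3 genes, with Cdk1 at 565 (others 799 to 838), Cdk4 at 3414 (others 2371 to 2501) and E2f1 at 1269.9 (others 740.2 to 763). In immature thymic cDC1, replicate 3 stood apart for the other 3, with Pola1 at 1100.1 (others 1345 to 1363), Lig1 at 2807 (others 2299 to 2370.3) and Ccnb2 at 1663 (others 1300.1 to 1359). Both libraries are among those left out together in the counts of the report.

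The maturation effect differed between cDC2 and cDC1, by the interaction term in limma, for 18 genes. The log2 differences (cDC2 minus cDC1) of the replication genes were 2.34 for Orc1, 1.72 for Tk1, 1.49 for Pola1, 1.37 for Rrm2, 1.33 for Gins2, 1.24 for Tyms and 1.08 for Rfc4. Those of the mitosis genes were 1.84 for Bub1, 1.48 for Bub1b and -1.09 for Mki67. Among cyclins and CDKs they were 3.20 for Ccnb2, 2.17 for Ccnb1, 1.45 for Cdk6, 1.33 for Ccnd1, -1.04 for Cdk1, -1.25 for Ccnd3 and -2.41 for Ccnd2, and that of the inhibitor Cdkn1a was -1.90. Ccnb2 and Orc1 rested on few reads in mature cDC1, with 0 to 50 and 0 to 11 reads per sample.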

How the results depend on the processing

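Of 155 calls of single genes, 114 held under every alternative that was run, and of 5886 recomputed values 138 lost the call and 0 changed sign. The recomputed values include fits without a sample of a group not compared, where the log2 fold change cannot move. The 138 losses among 5886 thus understate how readily a call is lost. Without single samples, the number of genes called ranged from 48 to 49 for maturation in cDC1, 46 to 47 for maturation in cDC2, 5 to 7 for tissue in cDC1, 6 to 12 for tissue in cDC2, 2 to 3 for the subset in spleen, 3 to 3 in immature thymic cells, 18 to 27 in mature cells, 12 to 24 for the difference in maturation effects and 0 to 1 for that in tissue effects. The tissue count in cDC2 (7) rose to 12 without splenic cDC2 replicate 1, 11 without splenic cDC2 replicate 2 and 11 without immature thymic cDC2 replicate 1, and that of tissue effects from 0 to 1 without splenic cDC2 replicate 2. In the difference in maturation effects the count of 18 was 12 at the lowest. The tissue count in cDC2 was 12 with edgeR (TMM or RLE) and DESeq2, 11 with a pseudocount of 8, 11 with only the groups compared, and 12 without the 4 libraries that stood apart (chosen after the data were seen), which also gave 2 for the difference in tissue effects. Within lane 5 (added later) the counts were 0 and 4 for tissue in cDC1 and cDC2 and 1 for the subset in immature thymic cells, with fewer samples, and within lane 8 the difference in maturation effects gave 10. With no fold-change minimum they were 15 and 28 for tissue in cDC1 and cDC2, 7 and 6 for the subset in spleen and immature thymic cells, and 35 in mature cells. The count in mature cells was 14 for values of at least 10 in every sample, where 47 of the 55 genes were tested, and 10 with only the groups compared. The cause of the other changes was not tested. Orc1 lost its call in the difference in maturation effects in 27 of 37 settings, Cdc45 in mature cells in 12 of 37.

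Libraries whose labels open with the same number, taken here as the pool of tissue, were checked for pairing. The correlations of their deviations from the group means were 0.00656, 0.246, 0.461 and -0.0781 between splenic subsets, -0.150, 0.259, 0.276 and -0.0767 between immature thymic subsets and -0.122 between mature subsets. For immature thymic cDC1 replicates 3 and 4 with mature cDC1 replicate 1 they were -0.0598 and 0.120. These values neither show nor exclude that libraries of 1 pool vary together. With the pool as a random block (correlation 0.1552) the replicate block gave 49, 47, 6, 7, 3, 3, 22, 19 and 0 calls in the order of the ranges above, and as a fixed block 3 for each immature subset comparison. In immature cells depth limits low genes least, since every gene had at least 42 reads, whereas in mature cDC1 the lowest counts were 0 reads.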

Other observations

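A few further genes of the cycle, outside the comparisons described above, are given as values. Cks1b, a small protein that binds CDKs, was the S phase list's lone call between splenic subsets, lower in cDC2 by a log2 difference of -1.15 ± 0.28 (SE), adjusted p = 0.00456 in limma, from 1037, 925, 1066 and 1062 in splenic cDC1 to 491, 411 and 481 in splenic cDC2. The processed copies Ccnd3-ps, Ccnb2-ps and Pcna-ps1 reached 76.3, 3.33 and 0 normalized reads in their highest sample.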
